A study of Mus musculus with 12 samples.

Results

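The genes described here are 10 cytokine genes of macrophages: Tnf, Il6, Il10, Il12a, Il12b, Il23a, Il27, Ebi3, Osm and Il15. They were taken by name, with every probe that the arrays carry for them, out of 27274 named genes on the array. Each has 1 probe, and 8 of the 10 passed the filter on dim probes that left 16399 genes for testing (Il10 and Il12a did not pass). The arrays compared macrophages sorted from normal mouse pancreas with macrophages sorted from pancreatic tumor tissue, 6 arrays a group, and the comparison asks how the cytokine transcripts of macrophages in the tumor differ from those in the normal organ.

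All mice of both groups were labelled as female, strain C57/B6, 4 to 5 months old, and the genotype field reads "Not provided". The series design names wild-type, KPC (mice that develop pancreatic ductal adenocarcinoma) and FLT3-CRE/LSL-YFP animals (a reporter of cells with a Flt3 history), whereas the treatment protocol speaks of implanted tumors, and it is not stated which mice gave which sample. Sorting went straight into lysis buffer, and the amplified, Cy5-labelled cDNA was read on a single-color Agilent design. Whether a sample pools animals is not stated, and neither are the surface markers of the sort. In each group 1 sample name stands on 2 arrays, which were averaged, leaving 5 samples a group. Whether different names stand for different animals is not stated either; p-values then measure only how these samples vary, and some of that may be technical.

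Macrophages release cytokines within hours of sensing microbes or damaged tissue, and the choice among them shapes the response of T cells, endothelium and epithelium. TNF and IL-6 are pro-inflammatory products of NF-kB signalling, IL-10 acts back on macrophages through STAT3 to restrain them, and IL-12 drives interferon-gamma production by T and NK cells. IL-12, IL-23, IL-27 and IL-35 are built from shared chains: Il12b pairs with Il12a (IL-12) or Il23a (IL-23), and Ebi3 pairs with Il27 (IL-27) or Il12a (IL-35). Oncostatin M, from Osm, belongs to the IL-6 family, and IL-15 supports NK cells and memory T cells.

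The probes are shown for 6 genes because the results turn on whether these were detected, and because detection on these arrays moved with base composition. Each line gives bases 1 to 30 of a 60-base probe, 5′ to 3′, with G and C in capitals; the probe positions are on mm9, from the array annotation, which names no exon, intron or UTR.
Tnf, chr17:35336795-35336854, minus strand: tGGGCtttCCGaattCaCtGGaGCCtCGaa
Il27, chr7:133736137-133736196, minus strand: aatCtCGattGCCaGGaGtGaaCCtGGaCC
Il10, chr1:132920943-132921002, plus strand: GGaaaaCCtCGtttGtaCCtCtCtCCGaaa
Il12b, chr11:44227121-44227180, plus strand: GCtCttCaatCaGGGCttCGtaGGtaCatt
Il23a, chr10:127733766-127733825, minus strand: tGataaGaCtaatCtatCaGCCCaGaCatC
Il12a, chr3:68502346-68502405, plus strand: aaGtaCatGaGCCtatttatatttatttat
The stretch of Tnf holds 16 G or C bases, and that of Il12a holds 6. The Il12a probe also holds 4 copies of ATTTA, the core of the AU-rich elements that mark short-lived cytokine mRNAs, whereas 8.01% of all probes hold ATTTA at all.

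Levels are log2 processed signals relative to the 75th percentile of the same array, so that 0 is a gene as bright as that percentile; they compare samples for 1 probe and not 1 gene with another. The 75th percentile ran from 398 to 1547 in signal units, with normal replicates 2 and 3 dimmest, and 39.3% to 58.7% of probes were well above background. A signal at the noise floor of a dim array therefore reads as a higher level than the same signal on a bright array. Limma, with p-values adjusted over all genes, passed 140 of 16399 genes, 56 higher and 84 lower in tumor. Macrophage identity genes were detected in both groups, with 0 of 16 called, 8 positive and 8 negative differences and a median of 0.03. At an unadjusted limma p under 0.05, Adgre1 was lower in tumor (-0.80) and Fcgr3 higher (0.54). All 11 tested acinar genes of the pancreas were lower in tumor, 9 of them called. The summed signal of the acinar list was 0.406% to 2.21% of all signal in normal samples and 0.00578% to 0.181% in tumor samples. The part of acinar RNA in the cytokine differences was not tested.

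None of the tested cytokine genes passed the test: 0 of 8, against 0.854% of all genes. At an unadjusted p under 0.05 there were 2 of 8, Tnf (lower in tumor) and Il23a (higher), against 13.0% of all genes. Il12b and Il23a passed the filter through the tumor group alone, with 0 of 6 normal arrays above background, so the filter favored a higher value in tumor for both and the count is read without Il23a, as 1 gene, Tnf. No tested cytokine gene had groups that did not overlap (0 of 8, against 3.32% of all genes). Of the 8 differences, 4 were positive and 4 negative, with a median of 0.31 beside -0.004 for all genes. Il12b and Il23a are among the positive ones. Il15, among the negative ones, passed the filter through the normal group alone, which favored a lower value in tumor. The smallest difference that was called for any gene was 1.01, and the standard errors of these 8 ran from 0.27 for Il27 to 0.81 for Il6. In bulk RNA of sorted cells, fewer cells that make a cytokine and less mRNA in each cell cannot be told apart.

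**Figure D1:**
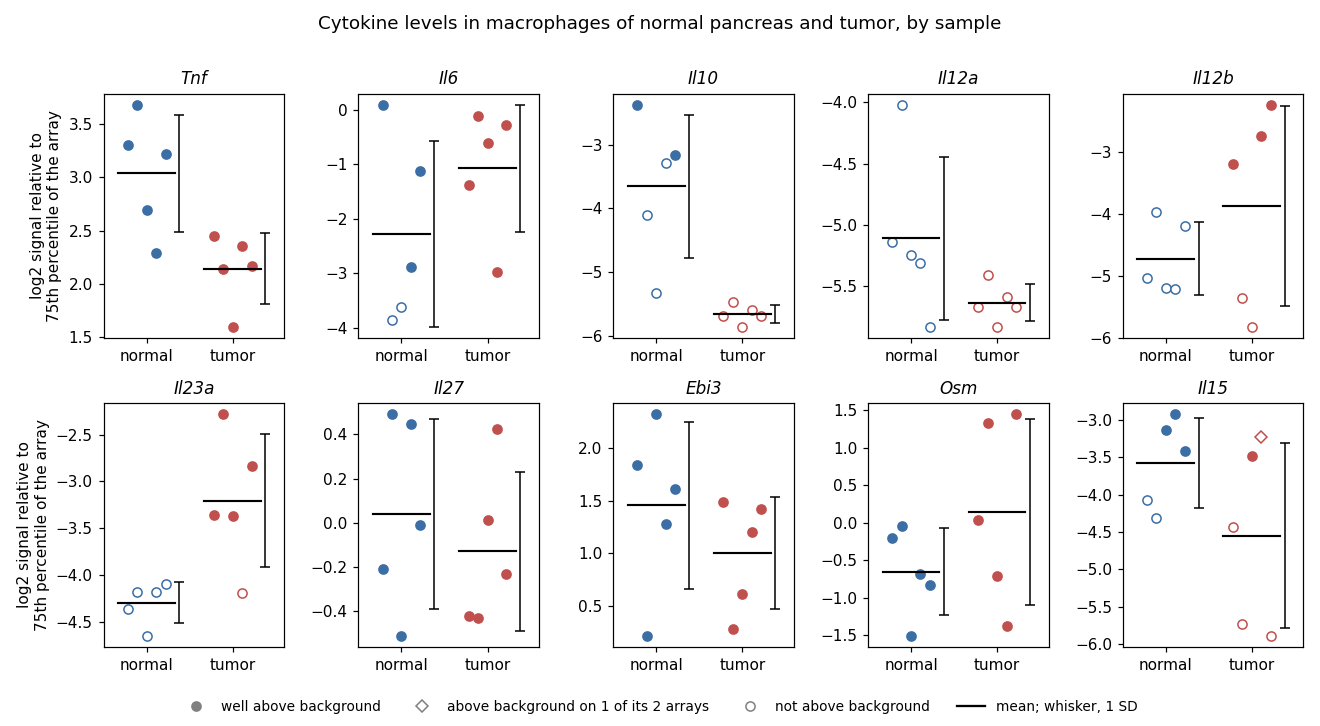
Level of each cytokine gene in every sample, as log2 signal relative to the 75th percentile of the array, for normal pancreas (blue) and tumor (red), 5 samples each; each panel has its own scale, bars are means and whiskers 1 SD. Filled points are well above background, the diamond is above background on 1 of its 2 arrays, and open points are not above background. Tnf, Il27, Ebi3 and Osm are filled throughout, and Il12a is open throughout.

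Tnf, the trimeric cytokine that triggers inflammatory gene programs and, in some cells, death, was well above background on all 12 arrays. Values are given in a fixed order: normal replicate 1, replicates 2 and 3 averaged, 4, 5 and 6, then tumor replicates 1, 2, 3, replicates 4 and 6 averaged, and 5. Tnf read 3.31, 3.68, 2.69, 2.29 and 3.22 in normal samples and 2.45, 2.14, 1.6, 2.36 and 2.17 in tumor samples. All 5 tumor samples lay below the normal mean and 3 lay below the lowest normal sample, but the highest tumor samples overlapped normal replicate 5.

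The Tnf means were 3.04 ± 0.55 in normal and 2.14 ± 0.33 in tumor (SD, n = 5), a difference of -0.90 ± 0.30 (SE), with a 95% interval of -1.55 to -0.24. This is 1.86-fold lower in tumor, with an unadjusted limma p of 0.012 and an adjusted p of 0.232, which does not pass. Permuting the group labels in every way gave p = 0.0238 (exact permutation test, two-sided), where the smallest possible is 0.00794; 10 such tests were run, 1 per gene, without adjustment. The difference was -1.20, -1.21 and -0.50 within slides 1, 2 and 3, and between -1.08 and -0.73 when any 1 sample was left out. The slides are not separate repeats. Slides 1 and 2 each hold an array of the averaged normal sample, and slides 2 and 3 each hold an array of the averaged tumor sample. The 10 spots of the Tnf probe on an array had an SD of 0.051 to 0.119 on the log2 scale, which covers differences between spots and not amplification, labelling or scaling. Before scaling, Tnf signals ran from 4827 to 14390 in the normal group and from 4225 to 6752 in the tumor group. The averaged normal sample, the highest after scaling, came from the dimmest arrays, with unscaled signals of 5098 and 5549 that lie within the tumor range. Normal replicates 4 and 5, at 6235 and 4827, also lay within that range, and only normal replicates 1 and 6, at 8531.5 and 14390, lay above it. Mast cells also make TNF: of their marker list, 3 genes were tested and 0 called, Cpa3, Fcer1a, Ms4a2 and Gata2 were above background on no array, and the list took 0.00106% to 0.00179% of all signal in normal and 0.00141% to 0.0035% in tumor samples; their part in the Tnf values was not tested.

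Il6, the acute-phase cytokine that signals through STAT3, had the widest spread among normal samples of any of the 10 genes. It read 0.09, -3.86, -3.62, -2.89 and -1.13 in normal samples and -1.39, -0.12, -0.62, -2.97 and -0.28 in tumor samples. Normal replicate 1 was the highest of all after scaling, and normal replicates 2, 3 and 4 were not well above background, whereas all 6 tumor arrays were. The averaged tumor sample lay within the lower normal values. The difference was 1.21 ± 0.81 (SE; 95% interval -0.58 to 3.0; limma adjusted p = 0.561; exact permutation p = 0.23) and did not pass; with normexp background correction it was 0.29. With 1 sample left out it ran from 0.81 without the averaged normal sample (unadjusted p = 0.347) to 1.80 without normal replicate 1 (unadjusted p = 0.029, limma adjusted p = 0.318).

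Osm, an IL-6 family cytokine made by myeloid cells that acts on stroma and endothelium, split the tumor samples. It read -0.21, -0.04, -1.51, -0.68 and -0.83 in normal samples and 0.04, 1.32, -0.71, -1.38 and 1.45 in tumor samples, above background on all 12 arrays. Tumor replicates 2 and 5 stood well above every normal sample and tumor replicate 1 just above, while the averaged tumor sample was near the lowest normal one. The SD was 0.58 in normal and 1.24 in tumor, and the difference of 0.80 ± 0.55 (SE; 95% interval -0.42 to 2.01) did not pass (limma adjusted p = 0.575; exact permutation p = 0.214). It was 0.47 without tumor replicate 5 (unadjusted p = 0.396), 0.50 without tumor replicate 2 and 1.18 without the averaged tumor sample (unadjusted p = 0.0395, limma adjusted p = 0.331). On slide 2 alone the Osm difference turned to -0.21.

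Within the tumor group Il6, Osm and Il23a put the samples in a similar order. Replicates 2 and 5 were the highest 2 tumor samples for each of these genes, and the averaged sample of replicates 4 and 6 was the lowest for each. This was noticed in the values and is a description of 5 samples. Of the list sums, the feedback inhibitors and IL-10 response genes also had tumor replicates 2 and 5 highest, at 0.154% and 0.152% of all signal, and the averaged sample lowest, at 0.0935%. The averaged sample was the lowest tumor sample too for immediate early and stress genes (0.226%), JAK and STAT signalling (0.0584%), other transcription factors (0.126%), RNA-binding regulators (0.0546%) and other ligands (0.0165%). It was the lowest as well for fibroblast and stellate cell genes (0.0344%, beside 0.0346% in replicate 1) and for ductal and tumor epithelial genes (0.0152%). Replicate 3 was the highest for both of these (0.0791% and 0.0341%). The remaining lists had a different order. The averaged sample was the highest tumor sample for receptors of the cytokines (0.114%) and for T and NK cell genes (0.0183%). Replicate 3 was the lowest for NF-kB subunits and inhibitors (0.0723%) and TNF receptor signalling (0.0294%). The neutrophil list took 0.0276% and 0.0208% in replicates 2 and 5 and 0.0232% in the averaged sample, and the dendritic cell list 0.0945%, 0.117% and 0.117%. The part of any of these in the order of the samples was not tested.

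Il10, the main cytokine that restrains macrophages, exceeded background clearly on normal replicates 1 and 6 and on 0 of 6 tumor arrays, and so was not tested with the other genes. Its unscaled signals on normal replicates 1 to 6 were 166.7, 24.4, 24, 23.9, 101.0 and 172.7, and on tumor arrays they lay between 24 and 26.8. Normal replicates 1, 5 and 6 were thus raised over the rest, and normal replicates 2, 3 and 4 were as dim as every tumor array. Its 10 spots told the same: 7, 3 and 8 of 10 spots were above background on normal replicates 1, 5 and 6, and 0 on the other 9 arrays.

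After scaling, Il10 read -2.37, -4.10, -5.33, -3.29 and -3.16 in normal samples and -5.68, -5.46, -5.86, -5.59 and -5.68 in tumor samples. The groups did not overlap on this scale (exact permutation p = 0.00794, the smallest that 5 against 5 allows), but normal replicates 2, 3 and 4 stand above the tumor samples only through the scaling, since their signals were the same. The mean of the normal samples lay below the level that could be detected on tumor arrays, so no fold is given. With no filter on dim probes the difference was -2.0 (unadjusted p = 0.00104, limma adjusted p = 0.12), and with normexp background correction it was -0.84. B cells, another source of IL-10, had marker sums of 0.00442% to 0.00793% of all signal in normal samples and 0.00479% to 0.00784% in tumor samples, with 0 of 7 tested genes called and Ms4a1 above background on no array; their part was not tested.

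**Figure D2:**
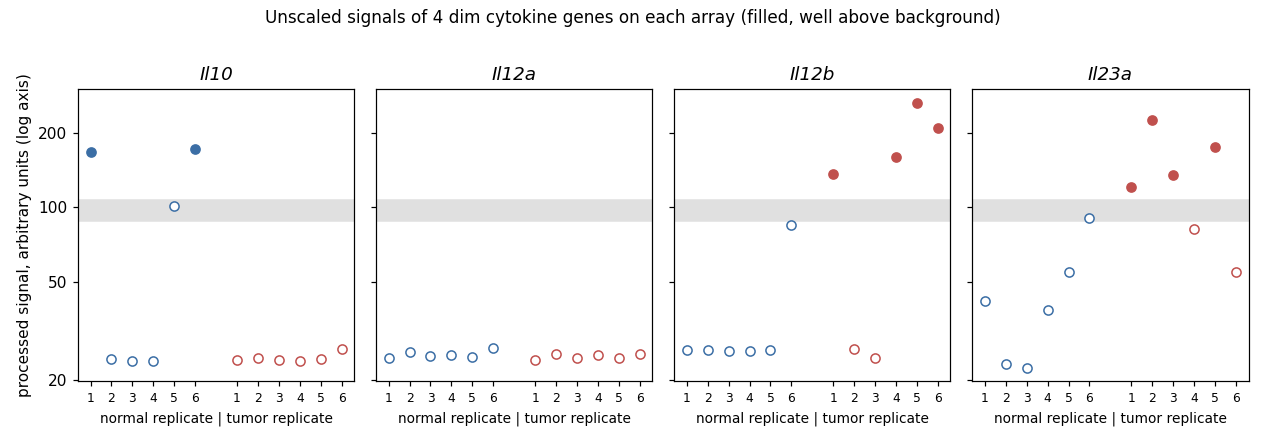
Processed signal, before scaling, of 4 dim cytokine genes on each normal (blue) and tumor (red) array, on a log axis; filled points are well above background and the grey band is the range over arrays of the lowest signal that was. Il10 rises out of the floor on normal replicates 1, 5 and 6 alone, Il12a on no array, Il12b on tumor replicates 1, 4, 5 and 6 and less on normal replicate 6, and Il23a lies lowest on normal replicates 2 and 3.

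Il12b encodes the chain shared by IL-12 and IL-23, and was well above background on 0 of 6 normal and 4 of 6 tumor arrays. Its unscaled signals were 26.2 to 26.5 on normal replicates 1 to 5 and 84.6 on normal replicate 6; on tumor replicates 1 to 6 they were 135.8, 26.7, 24.7, 159.2, 264.8 and 209.9. Tumor replicates 1, 4, 5 and 6 were therefore clearly detected, and tumor replicates 2 and 3 were at the floor. On the scaled axis Il12b read -5.03, -3.97, -5.20, -5.22 and -4.19 in normal samples and -3.19, -5.35, -5.83, -2.74 and -2.24 in tumor samples. Of the 10 spots, 6, 8, 10 and 8 were above background on tumor replicates 1, 4, 5 and 6, and 1 on normal replicate 6. Of the tumor samples 3 lay above the highest normal sample and 2 below the lowest. The difference of the scaled means was 0.86, which is a description only: Il12b passed the filter through the tumor group alone, and its normal values are floor signals. The tumor mean stayed under the level that could be detected on normal arrays, so no bound on a fold can be given. With 1 sample left out the difference ran from 0.45 (without tumor replicate 5) to 1.34 (without tumor replicate 3), with normexp background correction it was 0.25, and within slides 1, 2 and 3 it was 0.20, 0.26 and 2.29. Replicates 4 and 6, which share a sample name and lie on different slides, both had Il12b above background.

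Il23a, the chain that makes IL-23 with Il12b, a cytokine that sustains IL-17-producing T cells, was above background on 0 of 6 normal arrays and on tumor replicates 1, 2, 3 and 5. It read -4.37, -4.18, -4.65, -4.18 and -4.10 in normal samples and -3.36, -2.28, -3.37, -4.19 and -2.84 in tumor samples. All 5 tumor samples lay above the normal mean and 4 above the highest normal sample; the averaged tumor sample sat among the normal ones. The difference of the scaled means was 1.09, with a limma adjusted p of 0.195 that does not pass. Il23a too entered the fit through the tumor group alone, which favored this direction, and the fit sets tumor signals against normal values not above background (22.4 to 90.4 before scaling), so no support is taken from it. Normal replicates 2 and 3 had unscaled signals of 23.2 and 22.4, the lowest of the 12 arrays. The direction depended on the background correction: with normexp the Il23a difference was -0.06. The tumor mean did not exceed what could be detected on normal arrays, so no fold is given.

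Markers of dendritic cells, a main source of IL-12 and IL-23, and of neutrophils are given beside these values. The dendritic cell list took 0.0558% to 0.0724% of all signal in normal samples and 0.0448% to 0.148% in tumor samples, with 0 of 9 tested genes called and a median difference of 1.16. Of these genes, Kit (1.61) was above background on 1 of 6 normal and 5 of 6 tumor arrays, so the filter favored its higher value in tumor. The neutrophil list took 0.0137% to 0.0204% in normal and 0.0208% to 0.0276% in tumor samples. Its 10 tested genes had 7 positive and 3 negative differences, with a median of 1.37. Of these 1 was called, Retnlg, a resistin-like neutrophil protein (higher by 4.34, limma adjusted p = 0.0338). Retnlg was above background on 2 of 6 normal and 6 of 6 tumor arrays, so it passed the filter through the tumor group alone. The same held for S100a8 (0 and 5 arrays), Mmp8 (1 and 4), Ltf (1 and 4) and Ngp (2 and 3). The filter favored a higher value in tumor for each, and the last-named genes differed by 2.67, 2.55, 1.18 and -0.57. Mpo (-0.09) passed through the normal group alone. Cxcr2, S100a9, Camp and Csf3r passed in both groups and differed by 1.57, 2.28, -0.46 and 0.006. Only Csf3r was above background on every array. No support is taken from the median of this list. Elane was not above background on any array. Their part in the Il12b and Il23a values was not tested.

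Il12a, the chain that joins Il12b in IL-12 and Ebi3 in IL-35, was not well above background on any of the 12 arrays. Its unscaled signals lay between 24.2 and 27.1 on every array, which is the floor, so its scaled levels follow the brightness of the array and hold no information on the groups. Not detected is not absent: the Il12a probe has 16.7% G and C, and of the 67 probes within 1 G or C base of it, 13.4% were above background on any array, against 69.2% of all probes.

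Il27, the alpha chain of IL-27, and Ebi3, its partner, were above background on all 12 arrays. Il27 read -0.21, 0.49, -0.51, 0.45 and -0.01 in normal samples and -0.42, -0.43, 0.01, 0.43 and -0.23 in tumor samples, with the groups overlapping over nearly their whole range. The difference was -0.17 ± 0.27 (SE; limma adjusted p = 0.822; exact permutation p = 0.54), and its 95% interval of -0.77 to 0.43 leaves out changes larger than that in either direction. This was the narrowest interval of the 8 genes.

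Ebi3 read 1.84, 0.21, 2.32, 1.28 and 1.61 in normal samples and 1.49, 0.28, 0.61, 1.20 and 1.42 in tumor samples. The averaged normal sample was the lowest of all 10 and normal replicate 4 the highest, so the normal group spanned the tumor group. The difference was -0.45 ± 0.40 (SE; 95% interval -1.34 to 0.43; limma adjusted p = 0.664; exact permutation p = 0.302). It was -0.24 without normal replicate 4 (unadjusted p = 0.565), -0.27 without tumor replicate 2 and -0.77 without the averaged normal sample (unadjusted p = 0.0426, limma adjusted p = 0.389).

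Read as subunit pairs, the arrays differed by cytokine. Both chains of IL-27 were above background on 6 of 6 normal and 6 of 6 tumor arrays. Both chains of IL-23 were above background together on 0 of 6 normal arrays and 2 of 6 tumor arrays, replicates 1 and 5. Both chains of IL-12 were together above background on 0 of 6 arrays in each group, and the same held for IL-35. Il12a, a chain of both, was not detected on any array. For IL-12, Il12b too was above background on only 0 of 6 normal and 4 of 6 tumor arrays. Tumor replicates 2 and 3 had Il23a without Il12b, and replicates 4 and 6 had Il12b without Il23a. Transcripts of both chains in a bulk sample need not come from the same cell.

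Il15, a cytokine that macrophages present to NK cells and T cells bound to its receptor alpha chain, was above background on normal replicates 4, 5 and 6 and tumor replicates 3 and 4. It read -4.08, -4.32, -3.14, -2.92 and -3.41 in normal samples and -4.43, -5.73, -3.48, -3.23 and -5.89 in tumor samples. Tumor replicates 2 and 5, the highest of their group for Il6 and Osm, were the lowest for Il15. Both were at the floor, with unscaled signals of 20.5 and 21, the same as those of normal replicates 3 and 2. Il15 passed the filter through the normal group alone, with 3 of 6 normal and 2 of 6 tumor arrays above background, which favored a lower value in tumor. No support is taken from its fit, in which the difference was -0.98 ± 0.55 (SE, with a 95% interval of -2.20 to 0.24, limma adjusted p = 0.489, exact permutation p = 0.151). With 1 sample left out it ran from -0.64 without tumor replicate 5 (unadjusted p = 0.25) to -1.31 without the averaged tumor sample (unadjusted p = 0.0334, limma adjusted p = 0.314). It was -0.50 with normexp background correction and -0.57 with quantile normalization, and on slide 2 alone it turned to 0.76.

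**Figure D3:**
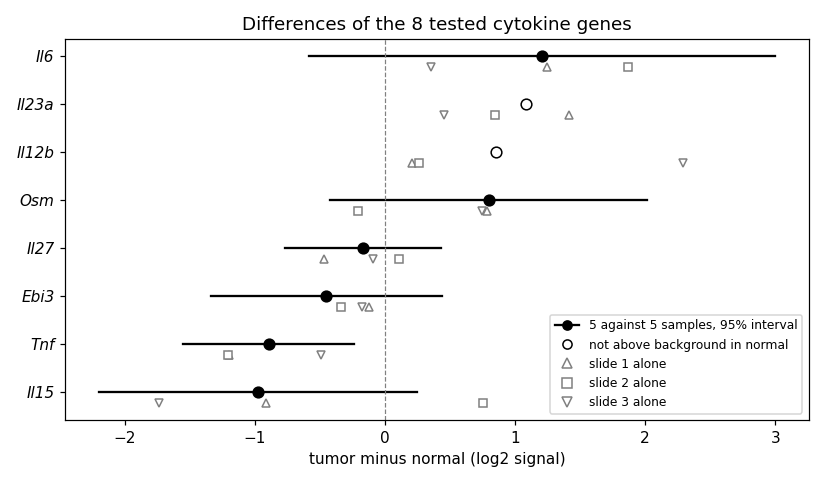
Difference of tumor minus normal (log2 signal) for the 8 tested cytokine genes, over 5 against 5 samples (black circles) and within each slide (small open symbols); lines are 95% intervals of the limma fit, left out for Il12b and Il23a (open circles), which were above background on no normal array. The interval of Tnf leaves out 0 before adjustment over all genes. Osm, Il27 and Il15 change sign on slide 2. Il15 passed the filter through the normal group alone, which favored a lower value in tumor.

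Detection of the 10 genes ran along with the base composition of their probes. Among all probes the share above background on any array was 18.3% for probes of up to 12 G or C bases and 97.0% for those of 34 or more. The 4 cytokine probes above background on all 12 arrays had 43.3% (Ebi3), 50% (Osm), 51.7% (Tnf) and 55.0% (Il27) G and C. Il6 and Il15 had 35.0%, Il12b and Il23a 38.3% and Il10 41.7%. Il10 was thus detected on fewer arrays than Il6, at 2 against 9, with a probe richer in G and C. For Il10, 70.1% of probes within 1 G or C base were above background on any array, with a median of 6 arrays. The part of base composition in which cytokines were detected was not tested.

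**Figure D4:**
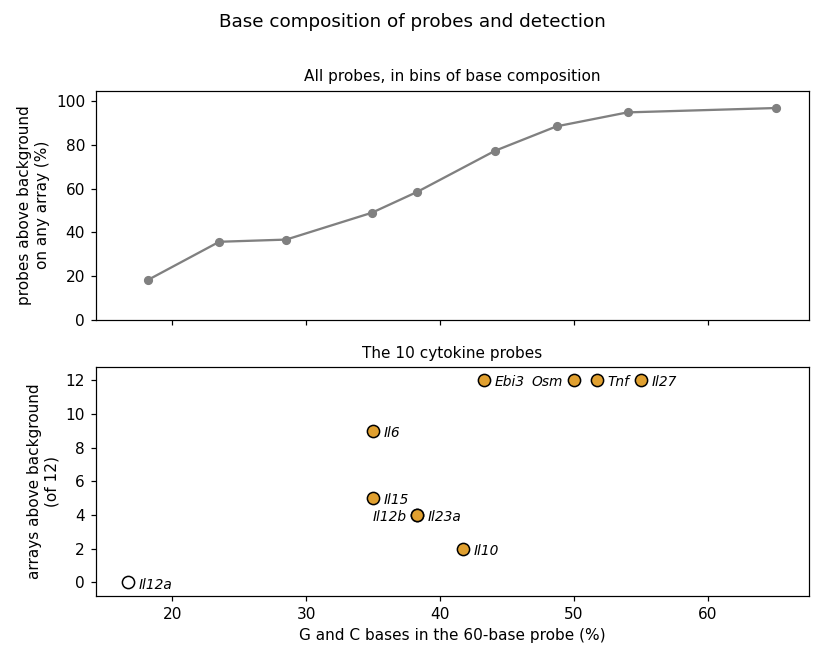
Upper panel, share of all probes above background on at least 1 of 12 arrays (%), by the share of G and C bases in the probe; lower panel, number of arrays on which each cytokine probe was above background. Detection rises from 18.3% to 97.0% over the bins, and Il12a, at 16.7% G and C, is detected on no array.

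The promoter of Il6 is shown because Il6 varied most between normal samples and its promoter was the only one of those at hand with a match to the NF-kB motif. RefSeq promoters (GRCm38.p6, from 250 bases before to 50 after the start) were at hand for 5 of the 10 genes: Tnf, Il6, Il12a with 2 starts, Il12b and Ebi3. The stretch below runs from 135 to 16 bases before the start of Il6, with a C/EBP and an NF-kB match in capitals.
Il6, chr5:30012979-30013098, plus strand: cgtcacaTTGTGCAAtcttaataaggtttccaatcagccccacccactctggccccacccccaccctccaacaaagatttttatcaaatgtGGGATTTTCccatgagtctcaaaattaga
On both strands, GGGANTTTC (NF-kB) matched 1.11% of 32851 promoters, TGANTCA (AP-1) 7.81%, TTGCNNAA (C/EBP) 10.8% and GAAANNGAA (interferon-stimulated response element) 8.56%. The Il6 promoter held the NF-kB letters 44 bases before the start, the C/EBP letters 128 bases before, on the other strand, and the AP-1 letters 249 bases before, outside the stretch shown. The other promoters of these genes held none of the 4 motifs, which says only that those letters are not in the window. A match is a description, not a bound site.

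The genes around the cytokines were read from 8 lists of 116 genes, 103 of them tested. None passed the adjusted test (0 of 103, against 0.854% of all genes), and 4 of 103 passed with normexp background correction. At an unadjusted p under 0.05 there were 25 of 103 (24.3%, against 13.0% of all genes), 21 higher and 4 lower in tumor. Of the 21, Stat4, Creb1 and Ripk1 passed the filter through the tumor group alone, which favored a higher value in tumor for each. The lists were chosen with earlier results of these data known, so no support is taken from this share. The median difference of the 103 was 0.30. The groups did not overlap for 6 of the 103 (Jak3, Crem, Cish, Cd163, Il4ra and Socs1), against 3.32% of all genes.

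Among the receptors of these cytokines, 0 of 11 tested genes were called and 3 had an unadjusted p under 0.05, all positive, with a median of -0.23. Il27ra, the receptor chain for IL-27, differed by 0.93 ± 0.29 (SE; limma adjusted p = 0.2), and Il2rg, the common gamma chain that IL-15 uses, by 1.03 ± 0.33 (adjusted p = 0.212). Il23r was above background on no array. In JAK and STAT signalling 0 of 13 were called and 3 had an unadjusted p under 0.05, all positive. Of these, Stat4 passed the filter through the tumor group alone, which favored a higher value in tumor. Jak3, the kinase of the common gamma chain, differed by 1.19 ± 0.25 (limma adjusted p = 0.063): it read 0.10 to 1.33 in normal samples and 1.66 to 2.13 in tumor samples, without overlap. Jak2 differed by 1.16 ± 0.37 (adjusted p = 0.213).

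Of the 18 TNF receptor signalling genes 0 were called, 3 had an unadjusted p under 0.05, all positive, and the median was 0.45. Ripk1, a kinase of the TNF receptor complex, differed by 1.23 ± 0.45 but was above background on 1 of 6 normal and 3 of 6 tumor arrays, and Traf1, an adaptor, differed by 1.11 ± 0.45. Among NF-kB subunits and inhibitors, 0 of 13 had an unadjusted p under 0.05, with Nfkbie at 0.95 ± 0.49 and Nfkbia at -0.46 ± 0.26, both inhibitors of NF-kB. The subunit genes Rela and Rel differed by -0.12 and -0.01, and the subunit genes Relb, Nfkb2 and Nfkb1 by 0.594, 0.381 and 0.375.

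The 20 other transcription factors of cytokine genes held 0 calls and 4 positive and 2 negative differences at an unadjusted p under 0.05. Of the positive ones, Creb1 passed the filter through the tumor group alone, which favored a higher value in tumor. Maf, a factor that activates Il10 in macrophages, differed by -0.99 ± 0.27 (limma adjusted p = 0.145). Crem, a cyclic AMP responsive factor, differed by 1.57 ± 0.44 (adjusted p = 0.153), from -0.04 to 2.09 in normal samples and 2.24 to 3.46 in tumor samples, without overlap.

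Feedback inhibitors and genes of the IL-10 response had 0 of 10 called, with 6 positive and 1 negative at an unadjusted p under 0.05 and a median of 0.78. Cish, a STAT5-induced inhibitor of cytokine receptors, read -1.58, -1.31, -1.74, -4.09 and -1.48 in normal samples and 1.13, 1.42, -0.04, -1.05 and 1.47 in tumor samples, without overlap, a difference of 2.63 ± 0.64 (limma adjusted p = 0.106). Cd163, a hemoglobin scavenger receptor that IL-10 induces, read 3.83, 2.73, 2.08, 3.18 and 2.17 in normal samples and 2.03, 0.85, 1.07, 1.37 and -0.20 in tumor samples, also without overlap, a difference of -1.77 ± 0.45 (adjusted p = 0.123). Cd163 had the only negative difference of the list. The other 9 genes had positive differences, among them Sbno2 (0.85), Il4ra (0.78) and Socs3 (0.54).

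RNA-binding regulators of cytokine mRNA held 0 of 9 with an unadjusted p under 0.05, Elavl1, which stabilizes AU-rich mRNAs, being at 0.72 ± 0.34 and Arid5a, which stabilizes Il6 mRNA, at 0.53 ± 0.29. Zfp36, which speeds the decay of Tnf mRNA, differed by -0.33. Of the other ligands of the IL-6 and TNF families 0 of 9 were called, with 2 positive and 1 negative at an unadjusted p under 0.05. Tnfsf8 differed by 1.33 ± 0.45 and Tnfsf13b, the B cell survival factor BAFF, by -2.18 ± 0.75. The ligands Il11, Ctf1, Lta, Tnfsf4 and Tnfsf10 were above background on no array.

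**Figure D5:**
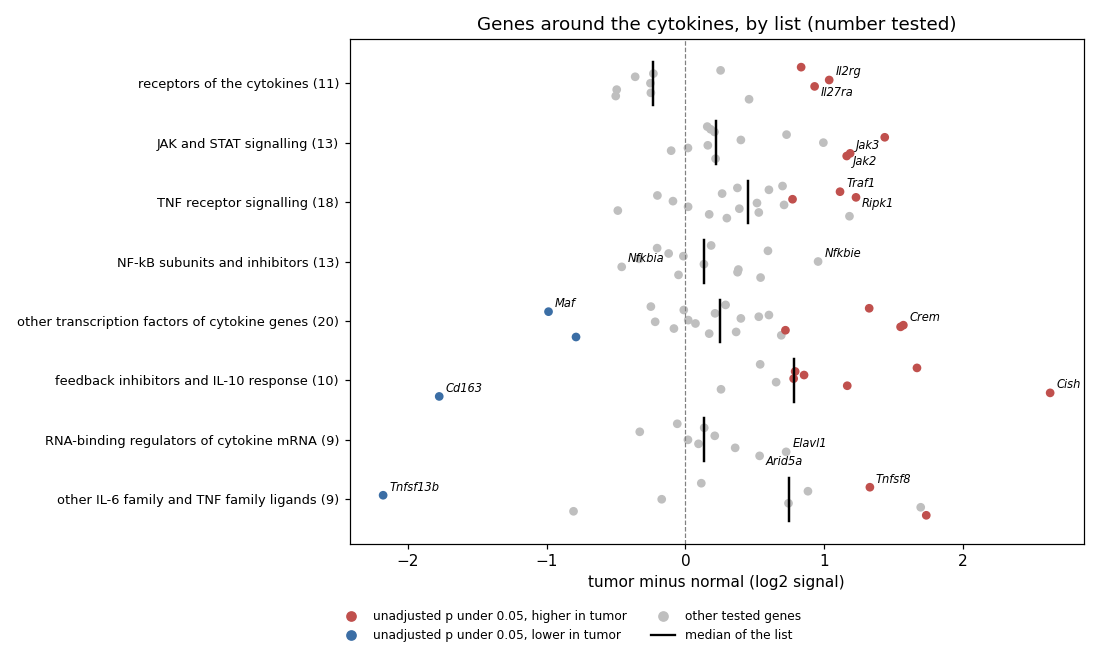
Difference of tumor minus normal (log2 signal) for 103 tested genes around the cytokines, 1 point a gene, by list; red and blue mark an unadjusted p under 0.05, black bars are list medians, and the names are the 2 genes of smallest p in each list. None of the points passed the adjusted threshold, and 21 of the 25 colored points lie above 0. Of those 21, Stat4, Creb1 and Ripk1 passed the filter through the tumor group alone.

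Cytokine mRNA can change while cells are dissociated and sorted, so immediate early and stress genes are given beside the cytokines. Of 13 tested, 9 had positive and 4 negative differences, with a median of 0.25, and 0 were called. At an unadjusted limma p under 0.05, 1 was higher in tumor, Egr2 (0.70), and 2 were lower, Jun (-0.75) and Atf3 (-0.79). The list took 0.171% to 0.297% of all signal in normal samples and 0.226% to 0.308% in tumor samples. Its part in the Tnf difference was not tested.

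For the 4 cytokine genes above background on all 12 arrays, the genes most like them across the 10 samples were named by Pearson r of log2 signal among 8066 genes that were also above background throughout. These r values are descriptions, since all genes share the same libraries and the best of so many is high by choice. Tnf was most like Rras (r = 0.961), Aldh18a1 (0.953) and Eif2b1 (0.926). Il27 was most like Lmod3 (0.94), Oscar (0.927) and Apold1 (0.918), and Ebi3 like Taok3 (0.929), Timm50 (0.915) and Tagap (0.907). Osm was most like Socs3 (0.933), an inhibitor induced by STAT3, with r = 0.779 within normal and 0.993 within tumor samples, and then Ssu72 (0.887) and Rbm7 (0.871). Socs3 itself read 4.15 to 5.15 in normal samples and 5.07, 5.76, 4.79, 4.49 and 5.64 in tumor samples, where replicates 2 and 5 were again highest and the averaged sample lowest.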

How the data were processed

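Per the file headers, arrays were read in red alone with Agilent Feature Extraction 11.5.1.1, also named in the submitters' processing notes. The authors deposited spot intensities, of which the processed signal (background and spatial trend removed) was used with the well-above-background and other flags. They also deposited a log2 table per probe, with column medians of 7.08; it matched quantile-normalized log2 processed signals (lowest r over arrays 0.9999) and served as an alternative.

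Outlier-flagged spots (0.401%) were left out, log2 signals were averaged per probe, and levels were set relative to the 75th percentile of their array. A probe was kept if at least 3 of the 6 arrays of 1 group had it well above background, and a gene was read from its brightest probe. Names came from a GRCm38.p6 gene table (28025 of 39429 probes by accession). Arrays sharing a sample name (normal replicates 2 and 3, tumor replicates 4 and 6) were averaged, and 5 against 5 samples were fitted with limma 3.58.1 in R 4.3.3 (two-sided, Benjamini-Hochberg over 16399 genes, threshold 0.05; median SE 0.355). The fit was tested on simulated data. The number of arrays limits the precision. The slides (3, with arrays of both groups on each) and single samples were examined as alternatives.

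All 10 cytokine genes and, from each list, called genes or else the 2 of smallest p were named. Some others were named after their values were seen (Rela, Rel, Relb, Nfkb1, Nfkb2, Zfp36, Stat4, Creb1, Il4ra, Socs1, Sbno2, Egr2, S100a8, Mmp8, Ltf, Ngp, Mpo, Cxcr2, S100a9, Camp, Csf3r, Kit). The genes and lists were chosen with earlier results of these data known. Where a gene was dim on all arrays of a group, only a bound was sought, from the brighter group's mean over the lowest signal well above background.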

Additional observations from a re-analysis of the deposited data

How the results depend on the processing

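No paired analysis was possible because replicate numbers only follow the order of deposit and tie no normal sample to a tumor sample. The count of genes called was 140, and was 263 at an adjusted p under 0.1, 2126 without adjustment, 213 with normexp background correction, 236 with a trended, robust variance and 460 with 12 arrays as separate samples. Within slides 1, 2 and 3 limma passed 0, 0 and 0 genes (1590, 1565 and 953 at an unadjusted p under 0.05). It ran from 59 to 197 when 1 sample was left out, with 84, 88 and 59 without normal replicates 1, 4 and 5 and 78 and 71 without tumor replicates 1 and 2. The count of cytokine genes called stayed 0, apart from 2 without adjustment; of the 103 genes around them 0 were called, and 0 to 4 under the alternatives with adjustment. Of 237 values of single cytokine genes under alternatives, 4 reversed and 1 moved: Il23a was -0.06 with normexp, Il15 0.76, Il27 0.10 and Osm -0.21 on slide 2 alone, and Il10 moved to -0.84 with normexp. The cause was not tested. Tnf stayed negative in 24 of 24 alternatives, from -1.21 to -0.50. Signal over background limits Il10, Il12a, Il12b, Il23a and Il15, for which the scaling of dim arrays sets the values at the floor.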
